A study of Mus musculus with 4 samples.

Results

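The genes described here are 10 genes of major histocompatibility complex (MHC) class I and its antigen processing machinery, chosen by name from the 55421 genes listed for each library. They comprise the class I heavy chain genes H2-K1 and H2-D1, the light chain gene B2m, the peptide transporter genes Tap1 and Tap2, the loading factor gene Tapbp, the immunoproteasome genes Psmb8, Psmb9 and Psmb10, and the transactivator gene Nlrc5. All 10 were matched by identifier and symbol, and all 10 passed the expression filter that left 17144 genes for testing. Prefrontal cortex (PFC) tissue of wild-type C57BL/6 mice was taken at postnatal day 0, dissociated and cultured for 10 days in a serum-free neuronal medium. FGF2, a growth factor commonly added to neural cultures, was present at 5 ng/mL in 1 group and absent in the other. Total RNA of the mixed cultures was sequenced in 2 libraries with FGF2 and 2 libraries without FGF2, and the comparison asked which transcripts differed with FGF2. The methods of the study describe technical replicates for most samples and do not name the mouse cultures, so p-values may measure only the spread between libraries of the same material.

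MHC class I molecules display peptides from inside the cell to CD8 T cells. The proteasome cuts proteins into peptides, the TAP transporter carries them into the endoplasmic reticulum, and tapasin with its partners loads them onto a heavy chain paired with beta-2 microglobulin. In the brain, neurons and glia keep class I levels low at rest, and interferon and NF-kB signalling are known to raise these genes in many cell types.

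The promoters of the genes with a class I chain are shown because the heavy chain genes and B2m all differed between the groups. RefSeq promoter windows on GRCm38.p6 were at hand for 8 of the 10 genes, and Tap2 and Nlrc5 had no entry. The 250 bases before the start site were searched on both strands for an interferon-stimulated response element core (GAAANNGAAA), a gamma-activated site (TTCNNNGAA), a CCAAT box, the letters TGACGT and the NF-kB consensus of 10 bases. In the windows below, capitals mark matches to the response element core, the NF-kB consensus and the CCAAT box, which reads ATTGG on the other strand. The H2-K1 window is chr17:34000348-34000597 on the minus strand, and the B2m window is chr2:122147437-122147685 on the plus strand. Each is printed 5′ to 3′ along its gene and ends at or 1 base short of the start site.
H2-K1: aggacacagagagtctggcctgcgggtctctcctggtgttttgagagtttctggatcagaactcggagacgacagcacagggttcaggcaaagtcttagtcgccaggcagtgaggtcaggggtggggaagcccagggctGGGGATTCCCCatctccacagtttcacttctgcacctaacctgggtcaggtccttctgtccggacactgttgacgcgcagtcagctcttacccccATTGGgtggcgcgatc
B2m: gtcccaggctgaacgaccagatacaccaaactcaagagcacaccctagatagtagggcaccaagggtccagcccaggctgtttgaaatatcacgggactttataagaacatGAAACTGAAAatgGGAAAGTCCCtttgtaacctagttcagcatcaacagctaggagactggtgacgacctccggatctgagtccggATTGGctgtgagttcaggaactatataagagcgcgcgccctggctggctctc
In H2-K1 the NF-kB consensus was matched in 2 overlapping registers, from 111 to 101 bases before the start. In B2m the response element core lay 139 to 130 bases before the start and the NF-kB match 126 to 117 bases before it, on the opposite strand.

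The NF-kB match of H2-K1 had a near-identical counterpart in H2-D1, and in H2-Q4, another class I heavy chain gene that is described further on. The 30 bases around it are at chr17:34000438-34000467 (minus strand) for H2-K1, chr17:35262914-35262943 (plus strand) for H2-D1 and chr17:35379434-35379463 (plus strand) for H2-Q4, with the matches to the NF-kB consensus in capitals.
H2-K1: cccagggctGGGGATTCCCCatctccacag
H2-D1: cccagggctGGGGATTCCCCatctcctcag
H2-Q4: atcaggggtGGGGATTTCCCatctccccag
H2-K1 and H2-D1 were identical at 29 of the 30 bases, and each was identical to H2-Q4 at 25 of 30. The H2-D1 site lies inside an exon of a longer H2-D1 transcript in GENCODE, the H2-Q4 site lies inside an exon of Gm11131 on the opposite strand, and the H2-K1 site lies in no annotated exon.

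Over the 8 genes with a window, the NF-kB consensus was found in 3 (H2-K1, H2-D1 and B2m), and it was found in 7.25% of the 32851 promoter windows of the whole table. The response element core was found in B2m alone of the 8 and in 2.98% of all windows. The gamma-activated site was found in Psmb8 alone and in 7.02% of all windows. The CCAAT box was found in 6 of the 8 (all but Psmb8 and Psmb10) and in 33.8% of all windows, and TGACGT was found in none of the 8 and in 6.47% of all windows. Psmb9 and Tap1 lie head to head with 225 bases between their RefSeq start sites, so their windows share most of their bases and 1 CCAAT box is counted for both. In GENCODE, whose gene coordinates are given below, their exons overlap by 212 bases on opposite strands. These matches describe letters in a window and do not show that a factor was bound. A site that departs from the searched letters in any base was not counted.

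Of the 10 genes, 7 were higher with FGF2, none was lower (0 also at an unadjusted p under 0.05 and with DESeq2) and 3 did not pass the test (edgeR's quasi-likelihood test, Benjamini-Hochberg adjusted p below 0.05 over all tested genes). Over all tested genes the share called higher was 20.7% and the share called lower was 19.9%. The change was at least 2-fold in 6 of the 10 genes, against 5.22% of all tested genes that were called and at least 2-fold higher. The libraries of the groups did not overlap, with both FGF2 libraries above both libraries without FGF2, in 9 of the 10, against 33.6% of all tested genes. The median log2 fold change was 1.17 over the 10 genes, with a range from 0.20 to 2.23, and it was -0.00082 over all tested genes. In bulk RNA a difference in the number of cells that express a gene and a difference in RNA per cell cannot be told apart.

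**Figure D1:**
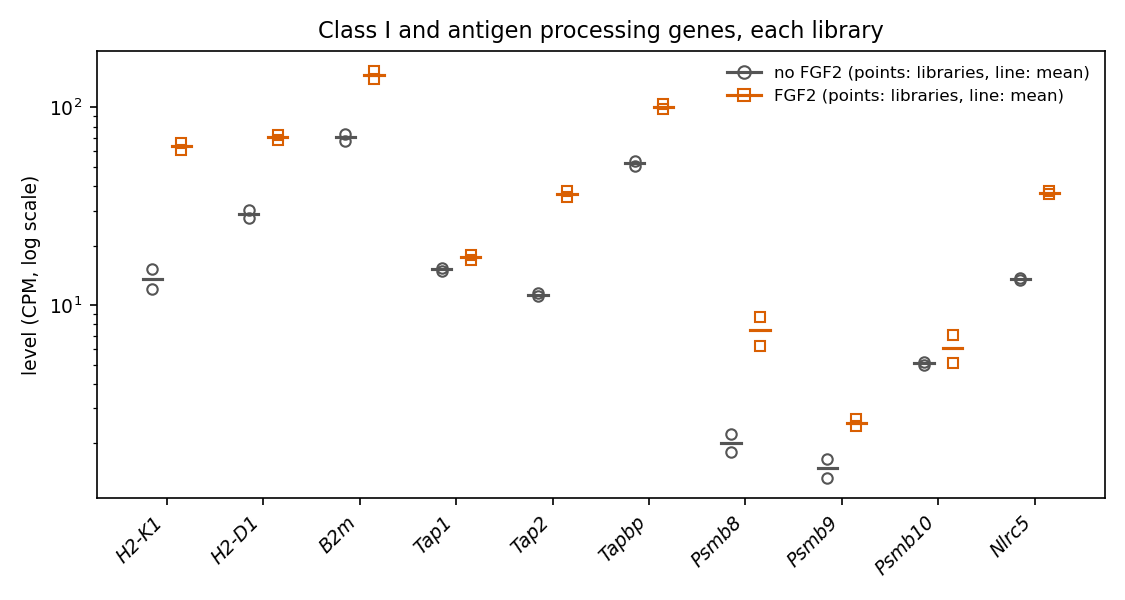
Level of each of the 10 genes in each library, in CPM (log axis), with circles for the 2 libraries without FGF2, squares for the 2 libraries with FGF2 and a line at each mean. The groups are separated for 9 genes and overlap for Psmb10, and Tap1 and Psmb9 are separated by less than the 7 genes that passed the test.

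Library totals over genes ranged from 9166432 to 10799886 counts, and the libraries of each group differed by more than sampling noise (chi-square per degree of freedom of 2.28 with FGF2 and 1.76 without FGF2). Levels are given in CPM, the counts of a gene scaled to a common library total. Cell type marker lists moved with the treatment. The summed level of 10 astrocyte markers was 12753 and 12628 CPM with FGF2 and 7793 and 7742 CPM without FGF2, that of 10 oligodendrocyte lineage markers was 1864 and 1873 CPM against 560 and 569 CPM, and that of 12 neuronal markers was 3789 and 3923 CPM against 5516 and 5496 CPM. Of the astrocyte markers all 10 were tested, 8 were called higher and 1 lower (Fgfr3), with a median log2 fold change of 0.41, and Gfap alone had a mean of 5793 CPM with FGF2 and 2776 CPM without FGF2. Of the oligodendrocyte lineage markers 9 were tested and 9 called higher, and of the neuronal markers 12 were tested, 1 called higher and 10 lower. The summed level of 15 microglial markers was 54.7 and 57.4 CPM with FGF2 and 34.6 and 36.1 CPM without FGF2. Of the microglial markers, 11 were tested and 5 were called higher, Csf1r and Ptprc among them, while Aif1, P2ry12, Tmem119 and Itgam had at most 9 counts in any library. Of 10 markers of T, B and dendritic cells, 5 had no count in any library, Cd3e and Cd8a among them, and 1 was tested and not called. Of 10 endothelial markers 4 were tested, 1 called higher and 1 lower, and of 10 fibroblast and mural markers 7 were tested, 2 called higher and 2 lower. The part of these cell types in the values of the class I genes was not tested.

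The class I heavy and light chains were higher with FGF2, and H2-K1 had the largest fold change of the 10 genes. H2-K1 (ENSMUSG00000061232, mm10 chr17:33996017-34000347, minus strand) encodes the K heavy chain, which binds the peptide and presents it. Its level was 66.3 and 61.2 CPM in the libraries with FGF2 and 15.2 and 12.01 CPM in those without FGF2. The lowest FGF2 library was 4.02 times the highest library without FGF2. The log2 fold change was 2.23 (SE 0.11), a 95% interval from 4.03-fold to 5.45-fold (edgeR adjusted p = 2.73e-86).

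H2-D1 (ENSMUSG00000073411, chr17:35262730-35267499, plus strand) encodes the D heavy chain and was measured at 73.0 and 68.3 CPM with FGF2 and at 30.3 and 27.4 CPM without FGF2. The groups did not overlap, and the log2 fold change was 1.29 (SE 0.09, edgeR adjusted p = 1.71e-42). Within a library the ratio of H2-K1 to H2-D1, in counts per kilobase of exon, was 0.798 and 0.786 with FGF2 and 0.442 and 0.384 without FGF2. H2-K1 was thus below H2-D1 in every library, and the ratio was 1.92 times higher with FGF2 (log2 means -0.34 ± 0.02 and -1.28 ± 0.14, SD, n = 2, two-sided exact permutation p = 0.33, the smallest that 2 against 2 allows). Of the 150-base windows of H2-D1 transcripts, 1.35% occurred exactly in another gene (H2-Q1, which had no count in any library), and no window of H2-K1 transcripts did.

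B2m (ENSMUSG00000060802, chr2:122147686-122153083, plus strand) encodes beta-2 microglobulin, the invariant light chain that class I heavy chains need to reach the cell surface. It stood at 152.7 and 140.0 CPM with FGF2 and at 73.6 and 67.7 CPM without FGF2, with no overlap between the groups. The log2 fold change was 1.05 (SE 0.07, edgeR adjusted p = 4.09e-56). Per kilobase of exon, B2m had the highest level of the 10 genes in either group, 170.2 ± 10.5 CPM per kb with FGF2 and 82.1 ± 4.8 CPM per kb without FGF2 (SD, n = 2).

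In the transport and loading group Tap2 and Tapbp rose and Tap1 did not pass the test. Tap1 (ENSMUSG00000037321, chr17:34187553-34197225, plus strand) and Tap2 (ENSMUSG00000024339, chr17:34203527-34216321, plus strand) encode the subunits that pair to form the peptide transporter. Tap2 was at 35.4 and 37.8 CPM with FGF2 and at 11.1 and 11.5 CPM without FGF2. The groups were far apart relative to their spread, with a log2 fold change of 1.70 (SE 0.13, edgeR adjusted p = 1.34e-35).

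Tap1 was at 18.0 and 17.0 CPM with FGF2 and at 14.9 and 15.4 CPM without FGF2. Its groups did not overlap, yet the log2 fold change was 0.20 (SE 0.15, edgeR adjusted p = 0.296), with a 95% interval from 0.939-fold to 1.41-fold. The interval of Tap1 ended below that of Tap2, which began at 2.70-fold. The ratio of Tap2 to Tap1 within a library, in counts per kilobase of exon, was 2.85 and 3.23 with FGF2 and 1.08 and 1.08 without FGF2. This pair was compared after its values were seen, and no test was run on the ratio.

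Tapbp (ENSMUSG00000024308, chr17:33915899-33929292, plus strand) encodes tapasin, which holds the heavy chain near the transporter while peptide is loaded. It was at 97.6 and 104.0 CPM with FGF2 and at 50.3 and 53.8 CPM without FGF2. The groups did not overlap, and the log2 fold change was 0.95 (SE 0.08, edgeR adjusted p = 1.26e-34), the smallest of the 7 genes that passed the test. Of its 3628 exonic bases, 149 are shared with Zbtb22 on the same strand and 904 with Gm19412 on the opposite strand. Opposite-strand genes also overlap exons of Tap2 (698 bases), Psmb8 (498), Tap1 and Psmb9 (212 each) and Nlrc5 (78). Counts appear to have been kept apart by strand, since 154 of 457 genes covered to at least 98% by a gene on the opposite strand alone had a count, against 4 of 652 covered by a gene on the same strand.

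Of the immunoproteasome genes, Psmb8 passed the test and Psmb9 and Psmb10 did not. These genes encode the catalytic subunits that replace Psmb5, Psmb6 and Psmb7 of the constitutive proteasome core and favour cuts that suit class I binding. Psmb8 (ENSMUSG00000024338, chr17:34197721-34201454, plus strand), the counterpart of Psmb5, had 79 and 61 counts with FGF2 and 19 and 24 counts without FGF2, or 8.71 and 6.20 CPM against 1.81 and 2.22 CPM. The groups did not overlap, and the log2 fold change was 1.88 (SE 0.30, edgeR adjusted p = 5.98e-09).

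Psmb9 (ENSMUSG00000096727, chr17:34181987-34187764, minus strand), the counterpart of Psmb6, had 24 and 24 counts with FGF2 and 14 and 18 counts without FGF2. The groups did not overlap, but these are low counts, and the log2 fold change of 0.76 (SE 0.44) had a 95% interval from 0.927-fold to 3.07-fold (edgeR adjusted p = 0.167). Psmb10 (ENSMUSG00000031897, chr8:105935735-105938444, minus strand), the counterpart of Psmb7, had 46 and 69 counts with FGF2 and 52 and 56 counts without FGF2, so its groups overlapped. Its log2 fold change was 0.26 (SE 0.26, edgeR adjusted p = 0.45), with a 95% interval from 0.846-fold to 1.70-fold. Without FGF2 replicate 2 the log2 fold change of Psmb10 was -0.00061 (edgeR adjusted p = 1).

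The constitutive counterparts were not called in either direction. Psmb5 was at 7.05 and 6.20 CPM with FGF2 and at 8.38 and 6.00 CPM without FGF2, Psmb6 was between 63.0 and 71.7 CPM over the 4 libraries, and Psmb7 was between 58.3 and 64.8 CPM. Their log2 fold changes were -0.12 (SE 0.23), -0.10 (SE 0.08) and 0.03 (SE 0.08), with edgeR adjusted p = 0.728, 0.341 and 0.845. Per kilobase of exon, the summed immunoproteasome subunits amounted to 10.4% and 11.2% of the summed constitutive counterparts with FGF2 and to 5.88% and 6.87% without FGF2. The ratio was 1.70 times higher with FGF2, and the groups did not overlap (log2 means -3.21 ± 0.08 and -3.98 ± 0.16, SD, n = 2, two-sided exact permutation p = 0.33, the smallest possible).

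Pair by pair, Psmb8 was 32.8% and 26.6% of Psmb5 with FGF2 and 5.74% and 9.82% without FGF2. Psmb9 was 2.15% and 1.93% of Psmb6 with FGF2 and 0.951% and 1.31% without FGF2. Psmb10 was 15.7% and 23.3% of Psmb7 with FGF2 and 17.0% and 16.1% without FGF2, and this pair alone overlapped between the groups. The constitutive subunits thus had the higher level per kilobase of exon in every pair and every library. For Psmb8 and Psmb5 this order with FGF2 depended on the exonic lengths used, 3381 and 899 bases as unions over annotated transcripts. In raw counts with FGF2, Psmb8 had 79 and 61 against 64 and 61 for Psmb5. Without FGF2, Psmb8 had 19 and 24 counts against 88 and 65. Of the 150-base windows of Psmb5 transcripts, 5.91% occurred exactly in another gene, Gm3375, and reads of low mapping quality had been left out, so Psmb5 may be counted too low.

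**Figure D2:**
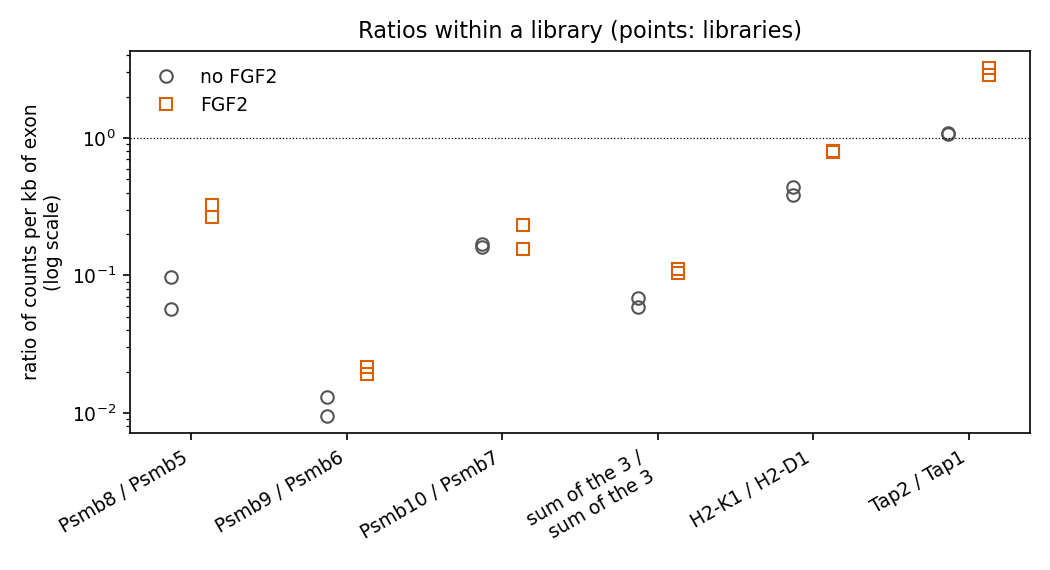
Ratio of counts per kilobase of exon within each library (log axis) for the 3 immunoproteasome subunits over their constitutive counterparts, singly and summed, for H2-K1 over H2-D1 and for Tap2 over Tap1, with circles without FGF2 and squares with FGF2. The squares lie above the circles for each ratio except Psmb10 over Psmb7, where they overlap, and the Tap2 to Tap1 ratio moves from 1.08 to values between 2.85 and 3.23.

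Nlrc5 (ENSMUSG00000074151, chr8:94434356-94527272, plus strand) encodes a transactivator that acts on the promoters of class I genes. It was at 37.6 and 36.5 CPM with FGF2 and at 13.4 and 13.7 CPM without FGF2. The spread within each group was small beside the gap between the groups, and the log2 fold change was 1.45 (SE 0.13, edgeR adjusted p = 1.85e-28). Ciita, its relative that acts on class II genes, had too few counts to be tested, with 0.220 and 0.915 CPM in the libraries with FGF2 and no count in those without FGF2.

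**Figure D3:**
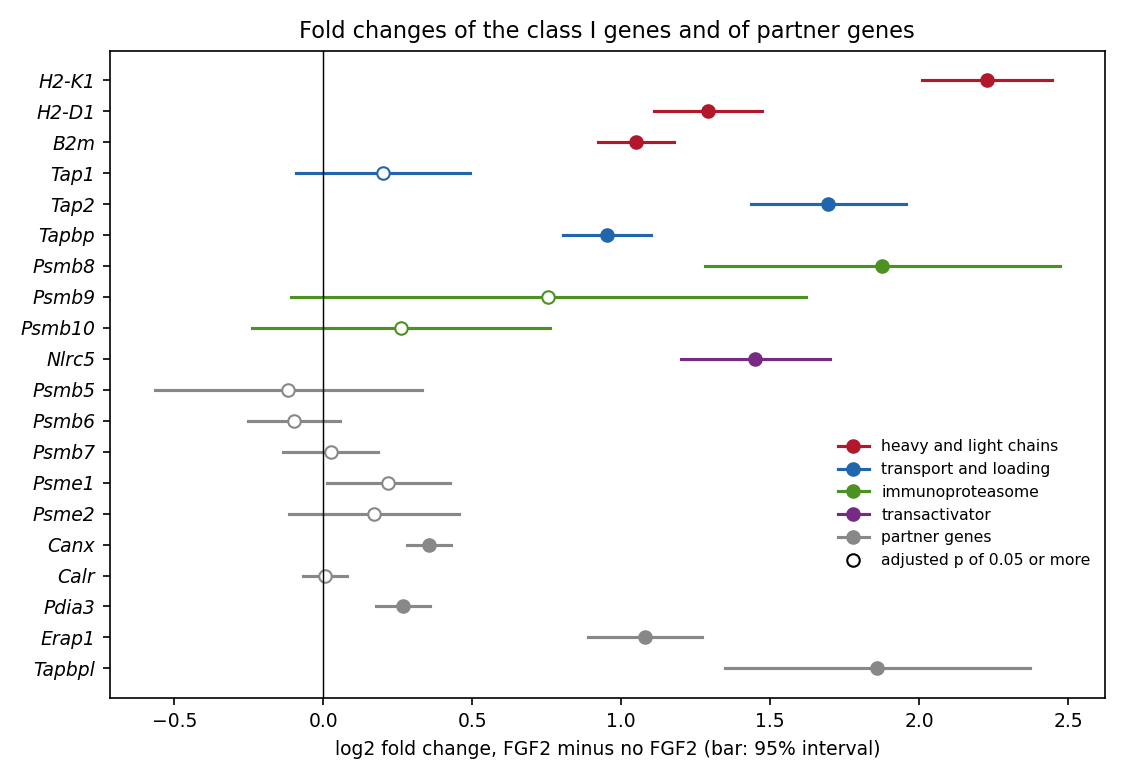
Log2 fold change, FGF2 minus no FGF2, with its 95% interval from edgeR, for the 10 genes by role and for 10 partner genes in grey. Open circles are genes with an adjusted p of 0.05 or more. Tap1, Psmb9 and Psmb10 are the open circles among the 10 genes, and the intervals of the other 7 lie above 0.

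Per kilobase of exon, the order of the levels with FGF2 was B2m, Tapbp (27.8 ± 1.2 CPM per kb), H2-D1 (27.4 ± 1.3), H2-K1 (21.7 ± 1.2), Tap2 (9.68 ± 0.46), Nlrc5 (4.36 ± 0.09), Psmb10 (3.54 ± 0.81), Tap1 (3.19 ± 0.13), Psmb8 (2.20 ± 0.52) and Psmb9 (0.695 ± 0.040, SD, n = 2 each). Tapbp and H2-D1 overlapped between their libraries, and so did Psmb10 and Tap1. Without FGF2 the order was B2m, Tapbp (14.4 ± 0.7 CPM per kb), H2-D1 (11.2 ± 0.8), H2-K1 (4.64 ± 0.78), Tap2 (2.99 ± 0.06), Psmb10 (2.97 ± 0.09), Tap1 (2.77 ± 0.06), Nlrc5 (1.59 ± 0.02), Psmb8 (0.595 ± 0.085) and Psmb9 (0.409 ± 0.064, SD, n = 2 each). There Tap2 and Psmb10 overlapped. Nlrc5 was the gene that changed place by more than 1 rank, from the eighth to the sixth. Exonic length is the union over all annotated transcripts, so a gene with long unused exons appears lower on this scale.

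Adjacent genes differed in the size of the change. Psmb9, Tap1, Psmb8 and Tap2 lie side by side in 34.3 kb (chr17:34181987-34216321), and they were the 4 tested genes there. The outer neighbours Psmb9 and Tap2 had log2 fold changes of 0.76 and 1.70, and the inner neighbours Tap1 and Psmb8 had 0.20 and 1.88. Of the 10 genes, 7 lie on chromosome 17 between Tapbp and H2-D1 (1351.6 kb, chr17:33915899-35267499). The 58 other tested genes of that stretch had a median log2 fold change of 0.06, with 12 called higher and 5 lower. The share called higher there was 20.7%, the same as over all tested genes.

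**Figure D4:**
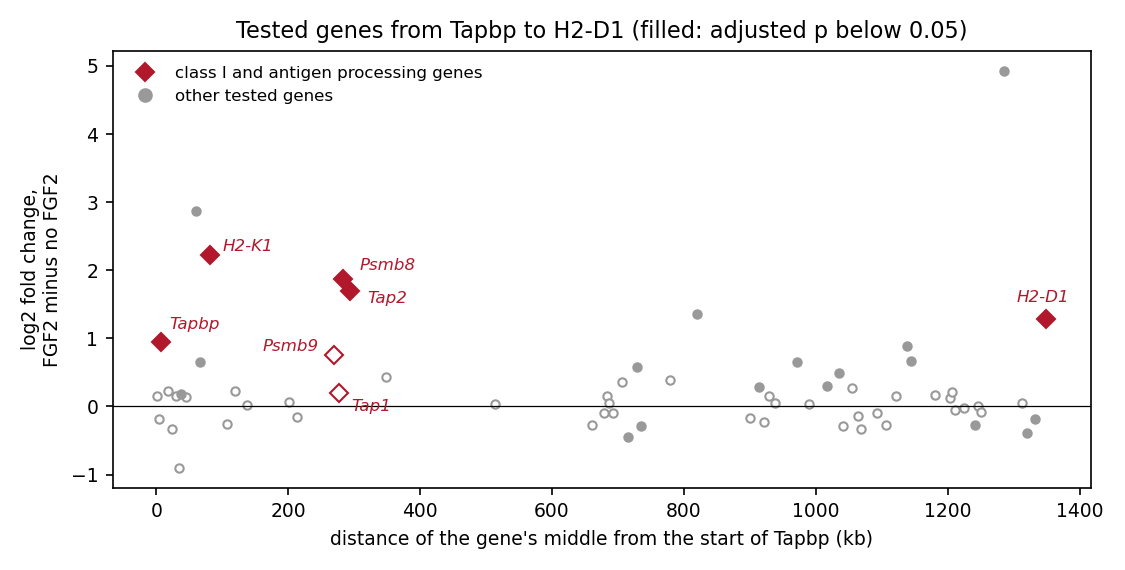
Log2 fold change, FGF2 minus no FGF2, of every tested gene between Tapbp and H2-D1 on chromosome 17, against the distance of the gene's middle from the start of Tapbp in kb. Diamonds are the 7 class I and antigen processing genes, circles the 58 other tested genes, and filled symbols have an adjusted p below 0.05. Tap1 and Psmb9 lie low beside Psmb8 and Tap2, and most other genes lie near 0. The highest circles are Tnf (4.93, above every diamond), H2-K2 (2.87) and C4b (1.36), and the lowest is B3galt4 (-0.90, open).

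Among other class I heavy chain and class I-like genes, 10 of 18 were tested, 6 were called higher and none lower, and their median log2 fold change was 0.45. H2-Q4, a non-classical heavy chain, was at 34.6 and 33.6 CPM with FGF2 and at 6.00 and 6.28 CPM without FGF2 (log2 fold change 2.47, SE 0.15, edgeR adjusted p = 4.48e-56). The others called were H2-Q7, H2-T22, H2-T23, H2-K2 and Fcgrt, of which H2-Q7, H2-T23 and H2-K2 were below 4 CPM in every library. Those below 4 CPM passed the expression filter only through the libraries with FGF2, where they were high. The filter thus favoured rises among them, and the number called and the median of the list depend on it. With at least 10 counts required in every library, 3 genes of the list were called higher. Class I genes are similar to each other, and 9.87% of the 150-base windows of H2-Q4, 5.90% of H2-Q7 and 22.3% of H2-T22 occurred exactly in another gene. The count of genes called higher was 3 without FGF2 replicate 2, and it was also 3 with DESeq2.

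Of 13 further loading and trimming genes, 7 were called higher and 2 lower, with a median log2 fold change of 0.14. Tapbpl, a relative of tapasin that edits bound peptides, rose from 2.67 and 2.68 CPM to 9.59 and 9.86 CPM (log2 fold change 1.86, SE 0.26, edgeR adjusted p = 1.27e-11). Erap1, which trims peptides in the endoplasmic reticulum, rose from 26.9 and 28.4 CPM to 57.2 and 59.8 CPM (log2 fold change 1.08, SE 0.10, edgeR adjusted p = 8.38e-27). The general chaperone gene Canx had a log2 fold change of 0.36 (SE 0.04) and Pdia3 one of 0.27 (SE 0.05), both called. Calr, at 472.7 to 520.0 CPM in every library, had a log2 fold change of 0.01 (SE 0.04, edgeR adjusted p = 0.92), and its direction turned under 2 other scalings. Thop1, a cytosolic peptidase, fell by 0.32 on the log2 scale (SE 0.10, edgeR adjusted p = 0.00415), a call that was lost without FGF2 replicate 2 and without noFGF2 replicate 2, and with DESeq2 (adjusted p = 0.13). The list had 0 genes called lower without noFGF2 replicate 2 and 1 without any other library.

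Of 14 constitutive core subunits none was called higher and 2 lower (Psmb2 with a log2 fold change of -0.26, SE 0.09, edgeR adjusted p = 0.011, and Psma3), and the range of the 14 was from -0.26 to 0.15. The 2 calls went to 0 without FGF2 replicate 2 and without noFGF2 replicate 1, to 1 without either of the other libraries, and to 0 with DESeq2. Of 9 activator and maturation genes none was called in either direction by edgeR, DESeq2 or limma-voom, while 3 had an unadjusted edgeR p under 0.05 and 1 gene was called higher without FGF2 replicate 1. Psme1 and Psme2, which encode the activator that caps the immunoproteasome, had log2 fold changes of 0.22 (SE 0.11, edgeR adjusted p = 0.0874, unadjusted p = 0.0392) and 0.17 (SE 0.15, edgeR adjusted p = 0.381).

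Of 19 regulators of class I transcription 18 were tested, 12 were called higher and 1 lower, and the median log2 fold change was 0.57. Irf1, an interferon-regulated factor that binds class I promoters, was at 39.0 and 38.8 CPM with FGF2 and at 9.33 and 6.93 CPM without FGF2. Its log2 fold change was 2.26 (SE 0.14, edgeR adjusted p = 2.33e-56). The NF-kB genes of the list were all called higher, with log2 fold changes of 2.04 (SE 0.14) for Nfkb2, 2.02 (SE 0.16) for Relb, 1.35 (SE 0.07) for Nfkb1 and 0.97 (SE 0.09) for Rela.

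Rfx5, a subunit of the factor that recruits NLRC5 to class I promoters, fell by 0.40 on the log2 scale (SE 0.10, edgeR adjusted p = 0.000155), from 48.4 and 49.4 CPM to 38.0 and 36.2 CPM. The other RFX genes of the list did not move with it. Rfxank was called higher (log2 fold change 0.49, SE 0.11, edgeR adjusted p = 0.000102). Rfxap was not called (log2 fold change -0.14, SE 0.15, edgeR adjusted p = 0.482).

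Of 10 interferon receptor, kinase and ligand genes 7 were tested, 6 were called higher and none lower. Ifngr1, a chain of the interferon gamma receptor, had the largest change (log2 fold change 1.02, SE 0.11, edgeR adjusted p = 2.63e-20), from 23.4 and 23.6 CPM to 50.3 and 45.2 CPM. The count of genes called higher was 2 without noFGF2 replicate 2, and it was 2 with DESeq2. The ligand genes Ifng, Ifnb1 and Ifna4 had no count in any library, which allows levels of up to 0.278 to 0.327 CPM per library (3 counts, for counting error only).

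Of 10 genes of the MHC class II pathway, which presents peptides taken up from outside the cell, 3 were tested (H2-DMa, Ctss and H2-Ab1). None of the 3 was called by edgeR, DESeq2 or limma-voom, and 0 of the 3 had an unadjusted p under 0.05. The other 7, Cd74 and H2-Aa among them, had at most 8 counts in any library.

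**Figure D5:**
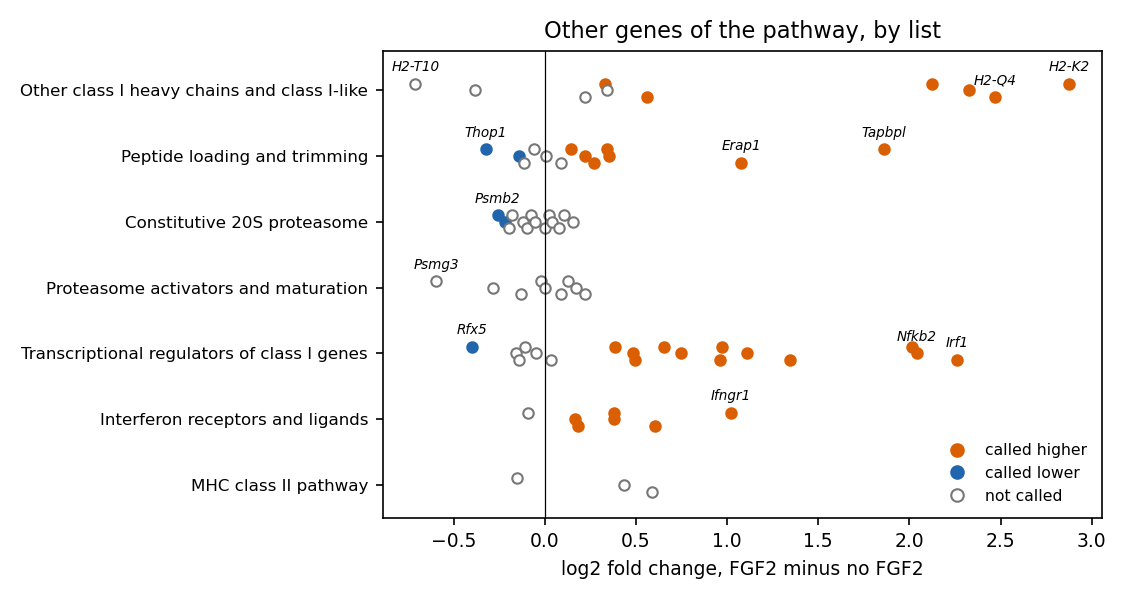
Log2 fold change, FGF2 minus no FGF2, of each tested gene in the 7 lists of other pathway genes, with orange points called higher, blue points called lower and open points not called by edgeR. The regulators and the other class I heavy chains reach above 2, while the 14 constitutive proteasome subunits lie between -0.26 and 0.15.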

How the data were processed

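The 4 libraries held total RNA of cultured mouse PFC cells taken at P0. The authors mapped reads to mm10 with HISAT2 2.1.0, kept reads with a mapping quality of at least 20 and counted them per gene with HTSeq 0.11.2, and they deposited raw counts without normalization. The annotation release and strand setting are not given in the sources used here. Of the 55421 listed genes, 55240 were matched to GENCODE release M21, and 5 tallies that name no gene were left out (reads in no feature were 43.2% to 45.9% and ambiguous reads 1.47% to 1.76%).

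Counts were tested in R 4.3.3 with edgeR 4.0.16 (quasi-likelihood F-test) after TMM scaling, the expression filter by group, no covariate and Benjamini-Hochberg adjustment over 17144 genes. CPM are counts scaled to a common library total after TMM adjustment. Ratios used counts divided by exonic length. The alternatives were other scalings and filters, DESeq2 1.42.0, limma-voom (limma 3.58.1), the replicate number as a block, each library left out in turn and a threshold of 0.01. The fits were tested on simulated data with 200 changed genes. There edgeR recovered 115 of them at a 1.5-fold change and 150 at a 2-fold change, with 8 and 11 unchanged genes called. DESeq2 recovered 85 and 123, and limma-voom 115 and 147. A gene that was not called can therefore have changed. Intervals and count limits cover counting error, or the spread between libraries, only.

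The genes and lists were chosen with earlier results of these data known. Beside the 10 genes and their named partners, the gene with the largest rise and that with the largest fall of each list (adjusted p below 0.05, mean of at least 5 CPM) were named, and the other genes were named after their values were seen. A few genes covered by this rule or these lists are left unreported.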

Additional observations from a re-analysis of the deposited data

How the results depend on the processing

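The same 7 genes were called higher and none lower under every alternative that was run, and the median log2 fold change of the 10 genes lay between 1.11 and 1.23. For libraries with the same number in the 2 groups, the labels name nothing shared beyond that number. The correlation of their deviations from the group means was 0.00463. Whether they shared a culture batch is not given. With the replicate block 7 of the 10 genes were called higher, and 3476 genes higher and 3338 lower over all genes. DESeq2 called 2068 genes higher and 1939 lower in place of 3541 and 3408. The immunoproteasome to constitutive log2 ratio difference was 0.95 in place of 0.76 without division by exonic length. The list of other class I genes had 3 genes called higher with at least 10 counts in every library, 3 with DESeq2 and 3 to 6 with a library left out, and 0 to 1 lower with a library left out (1 without noFGF2 replicate 1). Genes called lower in the loading and trimming list numbered 0 with DESeq2, 1 at a threshold of 0.01 and 0 to 1 with a library left out. Those of the constitutive proteasome list numbered 4 with upper quartile scaling, 0 with DESeq2, 0 at a threshold of 0.01 and 0 to 1 with a library left out. The activator and maturation list had 1 gene called lower with upper quartile scaling and 1 with total count scaling, and 0 to 1 higher with a library left out. The interferon receptor list had 2 genes called higher with DESeq2, 2 to 5 with a library left out, and 1 lower with upper quartile scaling. The direction turned for 4 genes that were never called. Calr had a log2 fold change of -0.0198 with upper quartile scaling, -0.0115 with total count scaling and -0.0674 to 0.0711 with a library left out. Psmb7 had -0.00077 with upper quartile scaling and -0.0505 to 0.0978 with a library left out, Psmb5 -0.34 to 0.14 and Psmb10 -0.00061 to 0.47. Of the 27 named genes tested, 20 neither turned nor crossed the threshold, 9 of the 10 genes among them. The cause of these shifts was not tested. There were 2 libraries per group, and Psmb8, Psmb9 and Psmb10 had at most 79 counts in a library.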
